A study of Mus musculus with 4 samples.

Results

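Ribosome biogenesis and nucleolar genes encode the machinery that transcribes, trims, modifies and folds ribosomal RNA and joins it to ribosomal proteins. RNA polymerase I makes the long precursor of ribosomal RNA in the nucleolus, small nucleolar ribonucleoproteins (snoRNPs) guide its chemical modification, the small subunit processome and later factors shape the 40S subunit, and a separate set of factors assembles the 60S subunit. Many of these genes are known targets of the transcription factor Myc, which binds DNA as a dimer with Max. They were followed in Py-4-1, a mouse hemangioendothelioma line, that is, cells from a tumour of endothelial origin.

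The set held 51 genes, listed by function together with Myc, Mycn and Max. Of these, 47 had at least 1 Affymetrix probe set that the platform annotation gave to that gene alone, out of 12393 such genes on the array, and a gene with several was represented by the one whose mean log2 value was highest. Dkc1, Nob1 and Nat10 had no probe set under their name, and the 1 probe set of Mrto4 also named other genes, so these 4 genes were not measured here. A filter on dim probe sets (intensity above the median of the array in at least 2 of the 4 arrays) was passed by 45 members, among 6956 genes in all. Max and Rrp9 lay below it and were read from the same fit without the filter.

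The comparison was between 2 clones of Py-4-1 transfected with pcDNA as controls and 2 clones of Py-4-1 that the labels call stably Prox1-expressing, from the plasmid pcDNA/Prox1. Prox1 is the homeobox factor of lymphatic endothelial identity. Each clone was hybridised once, so differences between clones, cultures and arrays cannot be told apart, and the promoter that drives the plasmid is not given in the sources used here. In bulk RNA, a lower level per cell in all cells and a loss in some of them also cannot be told apart.

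The arrays had median intensities of 163 to 179.7. The single Prox1 probe set gave 52.1 and 60.5 for the pair of controls, against 62.4 and 44.3 for the pair labelled as expressing it, with an adjusted p of 0.963 (limma without the filter), and the highest signals of 27 Bacillus controls on the arrays were 45.3 to 101. Whether this Prox1 probe set lies within the transfected sequence is not known from the sources used here. Groups are therefore called by their labels below. Of 10 endothelial markers, 9 passed the filter, and their summed intensity was 26802 and 33826 in the controls, against 37162 and 34566 in the Prox1-labelled clones. Of 7 epithelial markers 0 passed, with sums of 595 and 477 in the controls and 594 and 507 in the Prox1-labelled clones. Of 6 leukocyte markers 2 passed (Cd68 and Csf1r), with sums of 1223 and 1652 against 1284 and 1406, and of 8 fibroblast and smooth muscle markers 2 passed (Acta2 and Col1a2), with sums of 589.5 and 921 against 625 and 645.5. No marker was at an intensity of 0. Control clone 1 stood apart in the proliferation list, where the median log2 deviation from the mean of the 4 arrays was -0.51, against 0.063 to 0.17 in the other 3 clones, and in the endothelial list (-0.44, against 0.078 to 0.12).

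Most members read slightly lower in the Prox1-labelled clones, and 0 of 45 passed the test (limma, adjusted p under 0.05), where 0.115% of all genes tested did. The log2 change was negative in 38 members (84.4%) and positive in 7, while 49.1% of all genes tested had a negative change. The median over the members was -0.24, beside 0.0074 over all genes. At an unadjusted p under 0.05 there were 7 lower members (15.6%), beside 6.14% of all genes, and 0 higher members, beside 8.22%. Both Prox1-labelled clones lay below both control clones in 19 members (42.2%, beside 23.2% of all genes) and above both in 4 (8.89%, beside 23.2%). The shift was small for each gene: apart from Wdr55, changes ran from -0.55 to 0.50, with standard errors from 0.17 to 0.27. The members were chosen as a list with earlier results of these arrays known, and no test of the list as a whole was made.

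**Figure D1:**
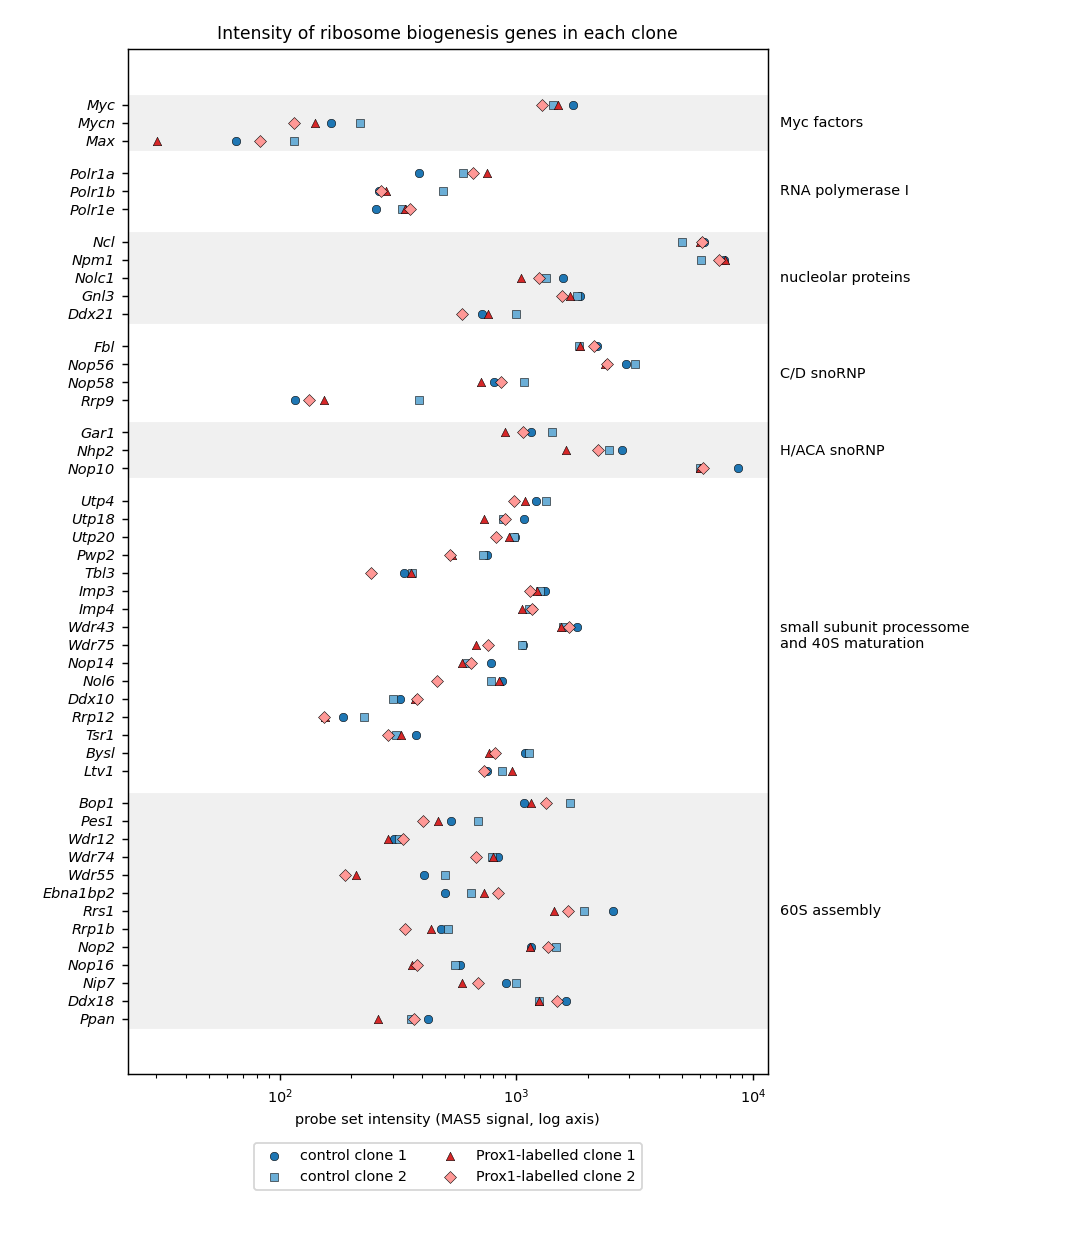
Probe set intensity (log axis) of each of the 47 measured genes in the 4 clones, grouped by role, with circles and squares for the control clones and triangles and diamonds for the Prox1-labelled clones. Red symbols lie to the left of both blue ones in 19 of the 45 genes above the filter, Wdr55 with the widest gap, and positions are to be read within a gene, not between genes.

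The median absolute log2 difference over the members was 0.24 between the control clones and 0.18 between the Prox1-labelled clones, and the median absolute change between the groups was 0.25. The former set single clones against each other and the latter sets means of 2 clones, so their sizes are not directly comparable. Control clone 2 was above control clone 1 in 21 of 45 members and Prox1-labelled clone 2 above clone 1 in 25, so that neither pair of clones was ordered one way. The lowest of the 4 values was in a Prox1-labelled clone in 34 members, 17 in each clone, and the highest in a control clone in 38, with 22 in control clone 1 and 16 in control clone 2. The median log2 deviation of the members from the mean of the 4 arrays was 0.10 and 0.073 in control clones 1 and 2, against -0.11 and -0.14 in Prox1-labelled clones 1 and 2. These medians of control clones 1 and 2 lay closer together than in the proliferation and endothelial lists. Among role groups they lay furthest apart in the RNA polymerase I subunits (-0.27 and 0.046) and the H/ACA snoRNP proteins (0.32 and 0.14). The part of control clone 1 in the members' change was not tested beyond leaving it out, which gave a median of -0.21.

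Myc, the factor that activates many ribosome biogenesis genes, read 1736 and 1428 in control clones 1 and 2, against 1506 and 1286 in Prox1-labelled clones 1 and 2. The groups overlapped, and the log2 change was -0.17 ± 0.20 (SE, limma adjusted p = 0.748), or -0.036 without control clone 1. Mycn, its paralog, was dim, with 165 and 218 in the control clones against 141 and 115 in the Prox1-labelled ones. Its change was -0.44 ± 0.23 (limma adjusted p = 0.421), both Prox1-labelled clones being below both controls, and its other probe sets, 1417155_at and 1425922_a_at, were below the filter and gave 0.23 and 0.094. Max, the partner that Myc needs to bind DNA, read 65.2, 115, 30.3 and 82.8 in the same order of clones. Both control clones were above the highest Bacillus control of their own arrays (45.3 and 101) and both Prox1-labelled clones below theirs (88.4 and 97.5). The groups overlapped, with a change of -0.43 ± 0.33 (limma without the filter, adjusted p = 0.717).

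Other factors of the Myc network, which compete for Max or act beside it, were measured for 8 of 10 listed genes. Their log2 change was positive in 7 of 8, beside 50.9% of all genes tested, with a median of 0.12, and 0 passed the test. Without control clone 1 it was positive in 5 of 8, and without control clone 2 also in 5. Without Prox1-labelled clones 1 and 2 it was positive in 6 and 7. The Max-binding repressor Mxd4 read 505 and 444 in the controls, against 701 and 527 in the Prox1-labelled clones, a change of 0.33 (limma adjusted p = 0.518).

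The sequence CACGTG, the E-box that Myc and Max bind, was searched in the promoters of the members as RefSeq gives them for assembly GRCm38.p6, each running from 250 bases before to 50 bases after a start site. CACGTG reads the same on both strands. Promoters were found for 42 of the 51 members, and 10 of these genes (23.8%) held the motif, beside 12.4% of the genes tested on the arrays and 8.09% of all genes in the table. In the wider list of ribosome biogenesis genes described below it was 20.8%, and in the list of other Myc targets 34.2%. Of the 7 members lower at an unadjusted p under 0.05, 5 had a promoter in the table and 0 held the motif, which says only that these letters are absent from that window.

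The promoters below belong to the 4 members with the smallest unadjusted p among those above the filter that hold the motif within 120 bases before or 30 bases after the start site, and are shown because they place the motif near the start of transcription. Each is given 5′ to 3′ on the gene's strand, from 120 bases before the start site to the start site or to the end of the motif, whichever is later, with the motif in capitals. In Pes1 (chr11:3963855-3963982, plus strand) the motif begins at base 3 of the transcript, in Utp4 (chr8:106893520-106893660, plus strand) at base 16 and in Tsr1 (chr11:74897960-74898109, plus strand) at base 25. In Utp18 (chr11:93885767-93885886, minus strand) it begins 20 bases before the start.
Pes1: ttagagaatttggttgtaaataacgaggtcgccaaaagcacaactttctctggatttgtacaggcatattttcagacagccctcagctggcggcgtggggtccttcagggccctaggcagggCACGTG
Utp4: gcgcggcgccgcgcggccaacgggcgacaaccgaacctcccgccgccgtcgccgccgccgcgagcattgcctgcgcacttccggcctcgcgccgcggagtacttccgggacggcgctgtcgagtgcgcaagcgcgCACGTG
Utp18: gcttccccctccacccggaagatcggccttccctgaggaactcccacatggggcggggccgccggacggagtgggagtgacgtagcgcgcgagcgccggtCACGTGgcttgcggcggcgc
Tsr1: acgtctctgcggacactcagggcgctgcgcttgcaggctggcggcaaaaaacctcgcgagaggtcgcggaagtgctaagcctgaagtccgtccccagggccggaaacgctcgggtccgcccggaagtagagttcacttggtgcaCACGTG
The log2 changes of these 4 genes, picked by their p, were -0.44 for Pes1, -0.29 for Utp4, -0.25 for Utp18 and -0.14 for Tsr1. None passed the test (limma adjusted p from 0.382 to 0.809). The other members with the motif and above the filter gave -0.16 (Utp20), -0.068 (Wdr43), -0.067 (Nop2), -0.050 (Imp4) and 0.047 (Ltv1). Max, which also holds the motif, was below the filter and gave -0.43.

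RNA polymerase I subunits were the role group with a positive median (0.23, 2 of 3 positive). Polr1a, the largest and catalytic subunit, read 389 and 593 in the controls, against 748 and 658 in the Prox1-labelled clones. The groups did not overlap, and the change was 0.50 ± 0.23 (limma adjusted p = 0.360). Without control clone 2 it was 0.78, and without control clone 1 it was 0.23. Its probe set 1456066_a_at gave 0.34 and 1460215_at gave -0.16, so the direction of Polr1a rests on the probe set chosen. Polr1e, a subunit that helps the enzyme start, read 255 and 330 against 340 and 356, a change of 0.23 ± 0.21 (limma adjusted p = 0.679), or 0.067 without control clone 1. Its dimmer probe set 1419058_at went from 73.6 and 146 to 247 and 231, or 0.91 (limma adjusted p = 0.203). Polr1b, the second subunit of the catalytic core, read 262 and 491 against 282 and 267. Control clone 2 alone was high there, and the change of -0.34 ± 0.27 (limma adjusted p = 0.621) became 0.058 without that clone.

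For 5 abundant proteins of the nucleolus, log2 changes ran from -0.32 to 0.13. Ncl, which encodes nucleolin, read 6206 and 5004 in the controls, against 5972 and 6078 in the Prox1-labelled clones, a change of 0.11 ± 0.18 (limma adjusted p = 0.825). Npm1, the nucleophosmin gene, read 7543 and 6057 against 7624 and 7185, a change of 0.13 ± 0.18 (limma adjusted p = 0.792). In both genes control clone 2 held the lowest value and the other 3 clones lay close together, and the sign turned without it (-0.043 for Ncl and -0.027 for Npm1). Nolc1, a nucleolar chaperone of snoRNPs, read 1571 and 1330 against 1051 and 1249. Its change was -0.32 ± 0.20 (limma adjusted p = 0.489), without overlap, and its other probe sets gave -0.43 and -0.091. The nucleostemin gene Gnl3 gave -0.17 and the RNA helicase gene Ddx21 gave -0.32, with overlap in Ddx21.

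Proteins of the C/D snoRNPs, which place methyl groups on ribosomal RNA, had negative changes in all 3 members above the filter. Nop56, a core protein, read 2901 and 3190 in the controls, against 2363 and 2428 in the Prox1-labelled clones. The groups were apart, each pair close, and the change was -0.34 ± 0.17 (limma adjusted p = 0.411), with -0.26 at its other probe set. Nop58, its core partner, gave -0.24 with overlap. Fbl, the methyltransferase fibrillarin, stood at -0.0049 ± 0.19, with 2183 and 1833 against 1857 and 2139. Rrp9, a protein of the U3 snoRNP, was below the filter, with 388 in control clone 2 and 116 to 154 in the other 3 clones.

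The H/ACA snoRNPs convert uridine to pseudouridine, and the 3 of their 4 core proteins that were measured had negative changes, with a median of -0.37. Nhp2 read 2801 and 2456 in the controls, against 1625 and 2217 in the Prox1-labelled clones, without overlap, a change of -0.46 ± 0.21 (limma adjusted p = 0.356). At 1416605_at, a second probe set, the groups were also apart (-0.36). Gar1 read 1154 and 1414 against 898 and 1064, again apart (-0.37 ± 0.20, limma adjusted p = 0.433). Nop10 read 8687 in control clone 1 and 5961, 5979 and 6136 in the other 3 clones. Its change of -0.25 ± 0.20 (limma adjusted p = 0.633) thus rested on control clone 1. It was 0.023 without that clone and -0.52 without control clone 2.

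**Figure D2:**
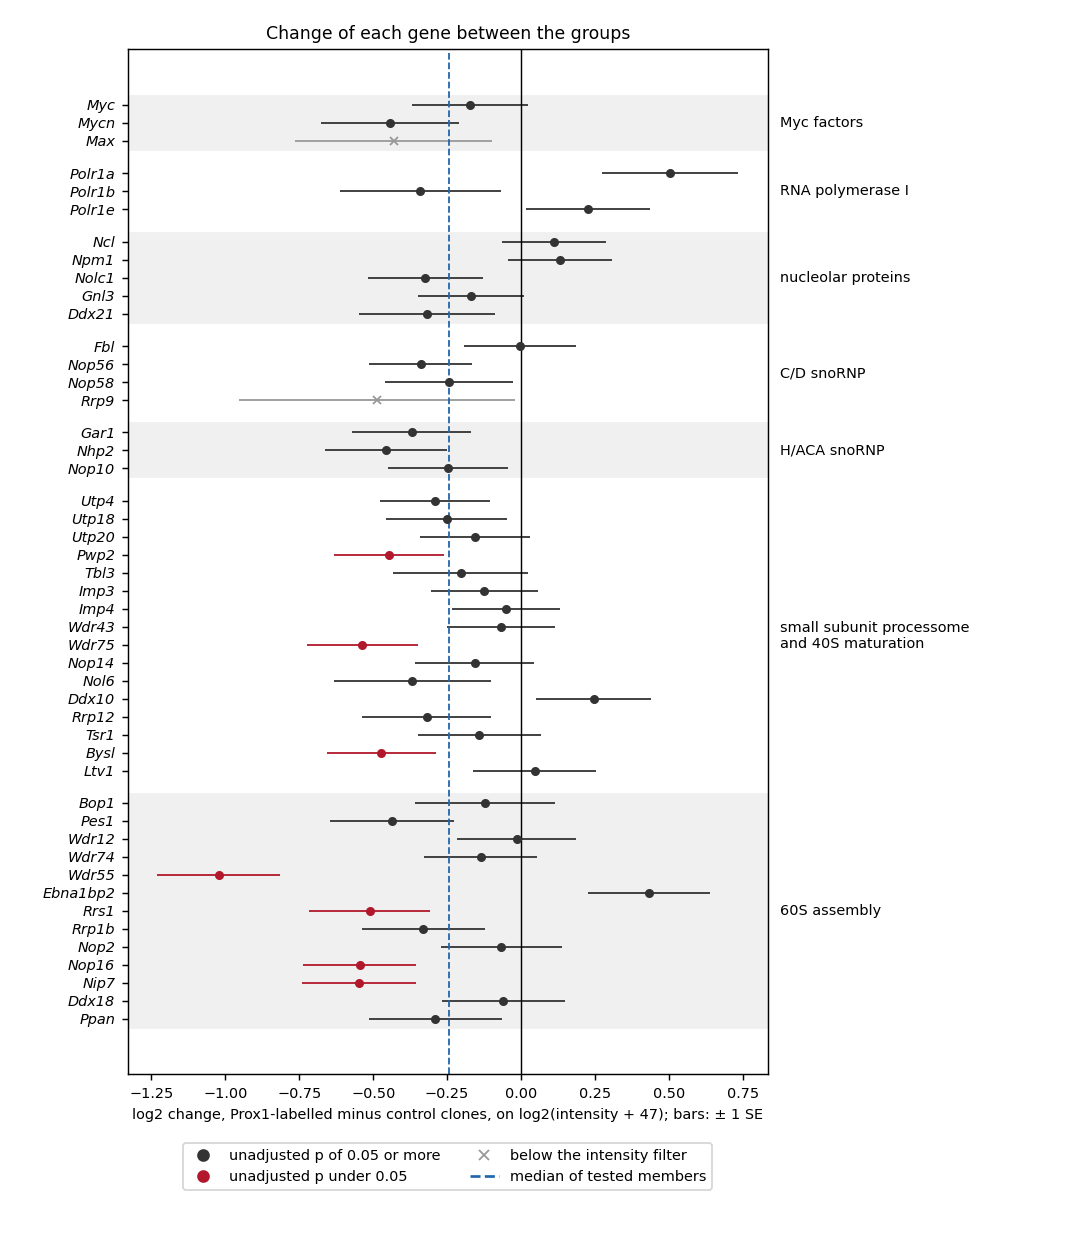
Log2 change of each gene between the Prox1-labelled and the control clones, on log2(intensity + 47), with bars of 1 standard error on either side. The 7 red genes, lower at an unadjusted p under 0.05, are Pwp2, Wdr75, Bysl, Wdr55, Rrs1, Nop16 and Nip7, the dashed line is the median of -0.24, and crosses are the 2 genes below the filter.

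Factors of the small subunit processome and of 40S maturation were the largest role group, with 16 of 18 listed genes above the filter. A negative change was seen in 14, with a median of -0.18. At an unadjusted p under 0.05, 3 of 16 were lower, beside 6.14% of all genes. Wdr75, of the complex that first binds the precursor, read 1064 and 1057 in the controls, against 673 and 763 in the Prox1-labelled clones. The controls were nearly equal and both Prox1-labelled clones lay well below, with a change of -0.54 ± 0.19 (limma adjusted p = 0.253), while a dim probe set under the filter (1442296_at) gave 0.12. Bysl, which encodes bystin, a factor of 40S export and maturation, read 1090.5 and 1135 against 767 and 811. Its change was -0.47 ± 0.18 (limma adjusted p = 0.289), and a second probe set, 1450742_at, gave -0.24, also without overlap. Pwp2, a scaffold protein of the processome, read 752 and 726 against 535 and 524, with both pairs close together (-0.45 ± 0.19, limma adjusted p = 0.318).

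These 3 genes had no overlap between the groups, so their direction could not turn when any 1 clone was left out. Wdr75 ran from -0.62 to -0.45, Bysl from -0.51 to -0.43 and Pwp2 from -0.47 to -0.42. Nol6, another processome protein, had overlapping groups. It read 867 and 783 in the control clones, 844 in Prox1-labelled clone 1 and 464 in Prox1-labelled clone 2. Its change of -0.37 ± 0.27 (limma adjusted p = 0.577) was 0.033 without Prox1-labelled clone 2, and a second probe set, 1424472_at, gave 0.25. Ddx10, a helicase of the same pathway, was the higher member of this group without overlap, with 322 and 302 against 374 and 382 (0.24 ± 0.20, limma adjusted p = 0.620) and 0.33 at its other probe set. Wdr43 (-0.068), Imp4 (-0.050), Imp3 (-0.12) and Ltv1 (0.047) stood near 0.

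The 60S assembly factors held 4 of the 7 members lower at an unadjusted p under 0.05, with 12 of 13 negative and a median of -0.29. Among all genes 6.14% were lower at that p. Wdr55, a WD-repeat protein needed for ribosomal RNA processing, had the widest change of all members. It read 409 and 502 in the controls, against 210 and 189 in the Prox1-labelled clones, means of 455 ± 65.3 (SD, n = 2) and 199 ± 14.8, a ratio of 0.438. The log2 change was -1.02 ± 0.21 (limma adjusted p = 0.128), and the gene was measured by 1 probe set. With any 1 clone left out, the Wdr55 change stayed between -1.16 and -0.89. Dropping either control gave the 2 ends of this range, control clone 1 the wider change and control clone 2 the narrower.

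Nop16, Nip7 and Rrs1 came next in this group. Nop16, a nucleolar protein of early 60S particles, read 578 and 549 in the controls, against 361 and 381 in the Prox1-labelled clones, a change of -0.55 ± 0.19 (limma adjusted p = 0.253). Nip7, another 60S assembly factor, read 905 and 998 against 588 and 686, a change of -0.55 ± 0.19 (limma adjusted p = 0.255). Its second probe set, 1453324_at, did not show this, with 256 and 179 against 235 and 211 (0.044). Rrs1, which helps to bring the 5S ribonucleoprotein into the subunit, read 2551 and 1927 against 1440 and 1648. The Rrs1 change was -0.51 ± 0.20 (limma adjusted p = 0.295). It was -0.71 without control clone 2 and -0.31 without control clone 1.

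Pes1, Bop1 and Wdr12 form 1 complex that processes the precursor of the large subunit RNA, and they did not go together. Pes1 read 528 and 687 in the controls, against 466 and 402 in the Prox1-labelled clones (-0.44 ± 0.21, limma adjusted p = 0.382, no overlap), while its dim second probe set gave 0.086. Bop1 read 1082 and 1691 against 1156 and 1331, with overlap (-0.12 ± 0.24), and Wdr12 read 304 and 321 against 288 and 332 (-0.014 ± 0.20). Whether these 3 changes differ from each other was not tested.

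Ebna1bp2, a nucleolar scaffold of 60S assembly, was the 1 member of this group with a positive change. It read 497 and 642 in the controls, against 728 and 833 in the Prox1-labelled clones, without overlap (0.43 ± 0.21, limma adjusted p = 0.377), and 0.16 at its second probe set. Ddx18, a helicase, read 1626 and 1242 against 1246 and 1487 at the probe set that stood for it (-0.060 ± 0.21, limma adjusted p = 0.929). Its other probe sets went the other way, 1416070_a_at with 0.28 and 1456000_at with 0.75, from 137 and 186 to 282 and 321 (limma adjusted p = 0.206), so no direction can be given for Ddx18.

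The count of negative changes depended on which probe set was read. The 45 probe sets that stood for a gene were negative in 38 cases, while the 23 other probe sets of members above the filter were negative in 12 and positive in 11. Of 18 members with at least 2 probe sets above the filter, 8 were negative at each of them (Nolc1, Ddx21, Fbl, Nop56, Nhp2, Nop10, Bysl and Rrp1b), 4 were positive at each (Polr1e, Npm1, Ddx10 and Ebna1bp2) and 6 were mixed (Polr1a, Ncl, Wdr43, Nol6, Nip7 and Ddx18). With the mean over all such probe sets of a gene, 36 of 45 members were negative and the median was -0.19.

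**Figure D3:**
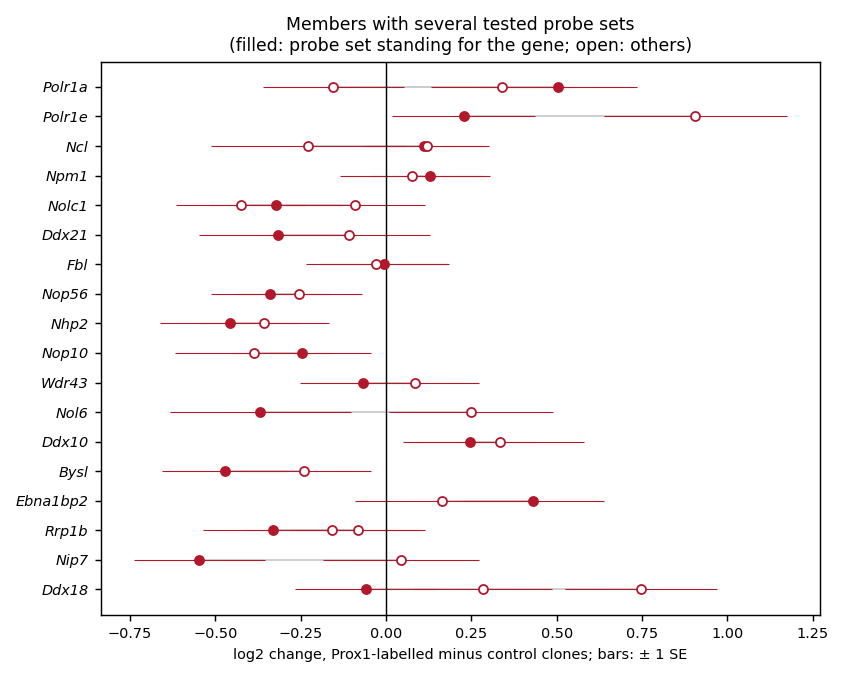
Log2 change at each probe set above the filter for the 18 members with at least 2 of them, filled for the probe set that stands for the gene and open for the others, with bars of 1 standard error. Points lie on both sides of 0 in 6 genes, Ddx18 and Nol6 among them.

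Leaving out a clone kept the median negative. It was -0.21 without control clone 1, -0.22 without control clone 2, -0.23 without Prox1-labelled clone 1 and -0.19 without Prox1-labelled clone 2. A total of 27 members were negative and 4 positive (Polr1a, Polr1e, Ddx10 and Ebna1bp2) with all clones and without each clone, and 14 changed sign at least once. In the 19 lower and 4 higher members without overlap between the groups, the sign could not turn. Calls of the test without a clone are not read here, since a group with 1 clone has no spread of its own in such a fit.

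**Figure D4:**
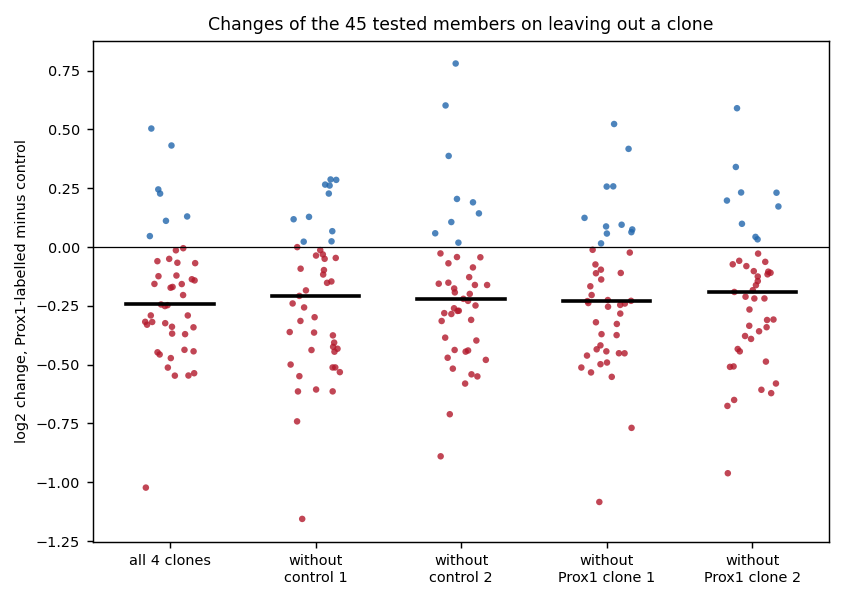
Log2 change of the 45 members above the filter with all clones and without each clone in turn, 1 point per gene (red below 0, blue above), with a bar at the median. The medians run from -0.24 to -0.19, and Wdr55 is the lowest point each time.

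Other genes of the pathway, which were not members, had a smaller median, a difference that was not tested. A wider list of 86 ribosome biogenesis factors had 69 genes above the filter, 44 of them negative (63.8%, beside 49.1% of all genes), with a median of -0.11. With limma 0 of 69 passed, beside 0.115% of all genes. At an unadjusted p under 0.05, 8 of 69 were lower and 7 higher, beside 6.14% and 8.22% of all genes. Eif6, which keeps 60S subunits from joining 40S too early, read 4435 and 3703 in the controls, against 2567 and 2941 in the Prox1-labelled clones (-0.55, limma adjusted p = 0.238). Aatf, a processome factor, gave -0.58 (limma adjusted p = 0.231), while Nle1, a 60S assembly factor, read 202 and 282 against 419 and 428 (0.72, limma adjusted p = 0.208) and the processome factor Utp11 gave 0.54 (limma adjusted p = 0.259). Without control clone 2, Eif6 was at -0.68 and Nle1 at 0.92.

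**Figure D5:**
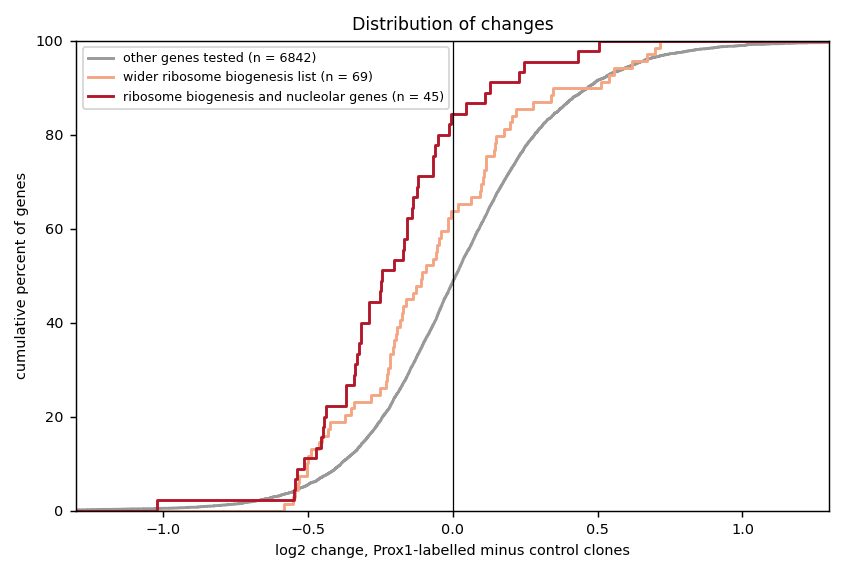
Cumulative percent of genes against the log2 change for the 45 ribosome biogenesis and nucleolar genes, the 69 genes of the wider list and all other genes tested. The curve of the 45 members reaches 84.4% at a change of 0, that of the wider list 63.8%, and the other genes cross 0 near the middle.

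With all clones, neighbouring lists also had medians nearer 0, and their differences from the members were not tested. Other subunits and factors of RNA polymerases I and III were negative in 13 of 21, with a median of -0.18. Both Prox1-labelled clones lay below both controls in 10 of these 21 and above both in 4, beside 23.2% of all genes each way. Without Prox1-labelled clone 2 the median of this list was -0.22, where that of the members was -0.19. Without control clone 2 it was -0.076, where that of the members was -0.22. Polr1d, a subunit shared by both polymerases, read 4922 and 3620 in the controls, against 2943 and 3022 in the Prox1-labelled clones (-0.49, limma adjusted p = 0.295), and Ubtf, which activates ribosomal RNA genes, gave -0.37 (limma adjusted p = 0.435). Going the other way without overlap, the RNA polymerase III factor gene Gtf3c1 read 433 and 449 against 665 and 702 (0.58, limma adjusted p = 0.225), and the RNA polymerase I factor gene Taf1b read 246 and 245 against 378 and 322 (0.44, limma adjusted p = 0.364). The RNA exosome and its cofactors, which trim ribosomal RNA precursors, were negative in 8 of 14 with a median of -0.067, the helicase gene Mtrex at -0.60, the subunit gene Exosc5 at 0.54 and the exonuclease gene Eri1 at 0.64. Cytosolic ribosomal proteins, the building blocks of the finished subunits, were negative in 22 of 43, with a median of -0.0019. The median was 0.13 without control clone 1 and -0.15 without control clone 2. In this list Rpl22l1 read 3418 and 4079 in the controls, against 1625 and 1709 in the Prox1-labelled clones (-1.14, limma adjusted p = 0.0726). Rps27 gave -0.67, with 859 in control clone 1 and 351 in control clone 2, against 325 and 335 in the Prox1-labelled clones. That change thus rested mostly on control clone 1. Rpl22 and Rpl14 each gave 0.37, Rpl14 at low intensities of 277 and 303 against 402 and 374. Each of these lists had 0 genes past the test.

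Known Myc targets outside ribosome biogenesis were negative in 29 of 36, with a median of -0.16 and 0 past the test. Fkbp4, a co-chaperone, read 924 and 788 in the controls, against 367 and 466 in the Prox1-labelled clones (-0.97, limma adjusted p = 0.128). The mitochondrial chaperonin genes Hspe1 and Hspd1 gave -1.13 and -0.55, with control clone 1 well above control clone 2 in both. Hspe1 read 8088 and 3651 against 2312 and 2607, and Hspd1 read 7863 and 5274 against 4116 and 4695. Shmt1, an enzyme of folate metabolism, was higher without overlap, with 195 and 229 against 327 and 345 (0.57, limma adjusted p = 0.265). Proliferation genes had positive changes in 9 of 12, with a median of 0.22, and the 9 endothelial markers above the filter were all positive, with a median of 0.19. Control clone 2 had a median log2 deviation of 0.16 for the proliferation list, against 0.17 and 0.063 in the Prox1-labelled clones, and of 0.088 for the endothelial list, against 0.12 and 0.078. Without control clone 1 the proliferation median was -0.12, with 3 of 12 positive, and the endothelial median 0.15, with 6 of 9 positive. Without control clone 2 they were 0.63 and 0.60. These values without a clone were added after the data were seen. Mki67, a marker of dividing cells, read 753 and 1109 against 1606.5 and 1300.4 (0.63, limma adjusted p = 0.266). The part that growth state or endothelial identity had in the members' values was not tested.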

How the data were processed

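Total RNA of 4 clones was hybridised to 4 one-colour arrays. The authors deposited intensities on a linear scale, made with MAS5 per the submitters' processing notes (version not given in the sources used here). Each deposited column had a mean of 500 after trimming 2% at either end. With 4 arrays the precision is limited: 0.333 is the smallest p of an exact permutation test of 2 against 2.

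Of 22690 probe sets, 64 controls were left out. Values were analysed as log2(intensity + 47), 47 being the 25th percentile, which understates changes of dim genes. The test was limma's (version 3.58.1, R 4.3.3), 2-sided, from lmFit and eBayes with an intensity trend. P-values were adjusted by Benjamini-Hochberg over the 11656 probe sets above the filter. The fit was tested on simulated data. P-values and standard errors rest on the spread between these clones, which eBayes draws towards a trend over all probe sets above the filter.

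Named members were Myc, Mycn and Max; per role group, that with the highest mean and those with the most positive and most negative change; those without overlap at unadjusted p under 0.05; and those whose probe sets differed in sign. Up to 4 genes per other list were named by smallest p, and further genes after their values were seen. Members and lists were chosen with earlier results of these data known. Names of all 47 measured members matched RefSeq by Entrez identifier.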

Additional observations from a re-analysis of the deposited data

How the results depend on the processing

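Over 15 alternatives to the processing, the members' median stayed negative. It moved from -0.24 to -0.29 with median centring, -0.21 with a larger pseudocount (173), -0.17 with a filter at the 75th percentile, -0.20 without probe sets that can match several transcripts and -0.19 with the probe sets of each gene averaged, and leaving out a clone gave -0.23 to -0.19. It was -0.26 with quantile normalization. The median over all genes also fell, from 0.0074 to -0.037 with median centring and to -0.012 with quantile normalization. The count of lower members at an unadjusted p under 0.05, which is 7, became 4 with the stricter filter and 2 to 12 on leaving out a clone, and that of higher members went from 0 to 1 without probe sets that can match several transcripts, to 1 with probe sets averaged, and to 0 to 2 on leaving out a clone. The share of all genes that was lower at that p, 6.14% with all clones, was 7.40% with the stricter filter, 8.71% and 10.8% without control clones 1 and 2, where 12 and 10 members were lower, and 2.52% and 3.18% without Prox1-labelled clones 1 and 2, where 2 members were lower each time. Members past the test numbered 0 under each alternative that kept all clones. The wider list had a median from -0.17 to -0.032 on leaving out a clone. Of 351 values of the 24 named members, 11 turned sign and the rest kept their direction. On leaving out a clone, Polr1b ran from -0.74 to 0.058, Ncl from -0.043 to 0.27, Npm1 from -0.027 to 0.29, Nop10 from -0.52 to 0.023, Wdr43 from -0.16 to 0.024, Nol6 from -0.77 to 0.033 and Ddx18 from -0.25 to 0.13. Nol6 was at 0.25 without probe sets that can match several transcripts, and with probe sets averaged Wdr43 was at 0.0079 and Ddx18 at 0.32. The cause was not tested. With the clone number as a replicate block, 0 members passed and 5 were lower at an unadjusted p under 0.05, beside 5.66% of all genes. Clones of 1 number share only that number: their deviations correlated at -0.0091 over 11656 probe sets. Max, Rrp9 and Mycn are limited by their low signal.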
